A study of Mus musculus with 10 samples.

Results

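The mammalian circadian clock was followed through 10 of its genes, Arntl, Clock, Per1, Per2, Per3, Cry1, Cry2, Nr1d1, Dbp and Tef, in RNA-seq libraries of mouse MC3T3-E1 pre-osteoblasts at 5 stages of culture. The genes were chosen by name, and all 10 were found by Ensembl identifier among the 40620 genes of the count table and passed the filter on low counts, which left 20808 genes for testing. MC3T3-E1 is a calvaria-derived line of which the study used Subclone 4, a single clone, so every library came from the same clonal line without any genetic change or inhibitor. Subconfluent and confluent cells were in αMEM with 10% serum. Cells of the 24 h, 14 d and 21 d stages had then been moved to differentiation medium, which added β-glycerophosphate at 10 mM and ascorbic acid at 50 µg/ml. Each stage had 2 replicates, named A and B, and nothing in the labels says whether they came from separate cultures, so the p-values measure only the spread between these libraries, which may be technical.

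The clock is a transcriptional feedback loop that nearly every mammalian cell carries. The proteins of Arntl (also called Bmal1) and Clock pair up and switch on the Per and Cry genes through the E-box element, and the PER and CRY proteins then return to the nucleus and block that pair. A side loop runs through Nr1d1 (REV-ERBα), a repressor that competes with ROR receptors for sites at Arntl, and the clock reaches its outputs partly through the PAR-bZIP factors DBP and TEF, which bind the D-box. In a rhythmic tissue Arntl peaks when Nr1d1, Dbp and the Per genes are near their trough, whereas in cultured cells the clocks of single cells drift apart unless a serum, cAMP or glucocorticoid stimulus resets them together. Neither the time of day of harvest nor the time since the last medium change is given in the labels.

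Promoter sequences from RefSeq, build GRCm38.p6, running from 250 bases before to 50 bases after a start site, were matched to 9 of the 10 genes, all but Per2. Letters of the known elements were searched for on both strands: the E-box CACGTG, the D-box TTATGTAA or TTACGTAA, the ROR element TAGGTCA or TGGGTCA, the cAMP response element TGACGTCA and the glucocorticoid response element GNACA and TGTNC with 3 unspecified bases between them. No match overlapped another motif. A match is a description of the letters and not a bound site. The following 4 windows are shown because they carry an element of each arm of the loop, with the matching letters in capitals, and because the 4 genes are among those whose levels differed between stages.

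Per1: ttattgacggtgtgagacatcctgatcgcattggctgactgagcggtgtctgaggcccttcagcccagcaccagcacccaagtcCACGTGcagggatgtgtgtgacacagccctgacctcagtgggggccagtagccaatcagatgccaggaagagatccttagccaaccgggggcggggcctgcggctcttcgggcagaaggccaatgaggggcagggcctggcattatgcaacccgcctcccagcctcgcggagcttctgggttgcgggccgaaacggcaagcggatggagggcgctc
Cry1: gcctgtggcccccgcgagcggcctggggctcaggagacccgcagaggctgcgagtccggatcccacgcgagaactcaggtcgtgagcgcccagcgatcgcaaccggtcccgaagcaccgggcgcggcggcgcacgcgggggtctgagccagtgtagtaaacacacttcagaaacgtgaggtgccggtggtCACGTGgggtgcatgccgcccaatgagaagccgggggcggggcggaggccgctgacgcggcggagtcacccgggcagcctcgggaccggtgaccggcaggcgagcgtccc
Per3: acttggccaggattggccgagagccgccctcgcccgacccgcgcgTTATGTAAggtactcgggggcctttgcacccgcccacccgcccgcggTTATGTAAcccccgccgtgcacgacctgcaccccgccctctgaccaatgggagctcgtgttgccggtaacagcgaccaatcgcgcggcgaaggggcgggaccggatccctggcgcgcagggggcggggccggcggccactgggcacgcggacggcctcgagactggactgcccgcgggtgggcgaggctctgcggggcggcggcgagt
Arntl: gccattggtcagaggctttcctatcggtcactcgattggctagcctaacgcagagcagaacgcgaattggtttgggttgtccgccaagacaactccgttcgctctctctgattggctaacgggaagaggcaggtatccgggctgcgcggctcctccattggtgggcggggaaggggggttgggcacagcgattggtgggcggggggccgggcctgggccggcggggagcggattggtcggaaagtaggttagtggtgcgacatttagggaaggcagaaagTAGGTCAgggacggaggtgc

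The Per1 window lies at chr11:69098699-69098998 on the plus strand and holds an E-box at position -166 from the start site, and the Cry1 window at chr10:85185005-85185304 on the minus strand holds another at -60. The Per3 window, chr4:151044616-151044915 on the minus strand, has 2 copies of the D-box, at -205 and -158. In Arntl the second of 2 listed start sites, chr7:113207261-113207560 on the plus strand, has a ROR element at position 31. Both Tef windows also hold an E-box. No searched motif was found in the windows of Clock, Cry2, Nr1d1 and Dbp, nor in the second Per1 window and the first Arntl window, which says only that these letters are not there. Of the 32851 mouse promoters of the same length, 7.15% hold the E-box, 1.06% the D-box, 6.45% the ROR element, 1.79% the cAMP response element and 0.475% the glucocorticoid response element.

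Library size ran from 44736156 to 162939333 counts. The osteoblast markers Runx2, Sp7, Alpl, Col1a1, Bglap and Ibsp were present in every library, with a summed level of 4888 to 15849 RPKM (reads scaled by gene length and sequencing depth), whereas the lists for adipocytes and endothelium summed to at most 1.09 and 0.0558 RPKM, and Ptprc and Myod1, defining markers of blood cells and muscle, had no count in any library. Of the blood and macrophage and the skeletal muscle lists, Lyz2 at up to 16.1, Csf1r at up to 3.19, Cd68 at up to 0.936 and Acta1 at up to 43.6 RPKM were the members above 0.1. The 24 h replicates stood apart from each other: over the 16133 genes with at least 10 counts in every library, the SD of log2 A over B was 0.67 at 24 h and 0.28 to 0.32 at the other stages. Counts of clock genes called between the other stages are therefore also given without both 24 h libraries, as are several calls of single clock genes. Counts for the further gene lists are not. The subconfluent, confluent and 24 h libraries share a pair of index sequences that differs from the pair of the 14 d and 21 d libraries, so early against late stages and one pair of indexes against the other cannot be told apart.

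**Figure D1:**
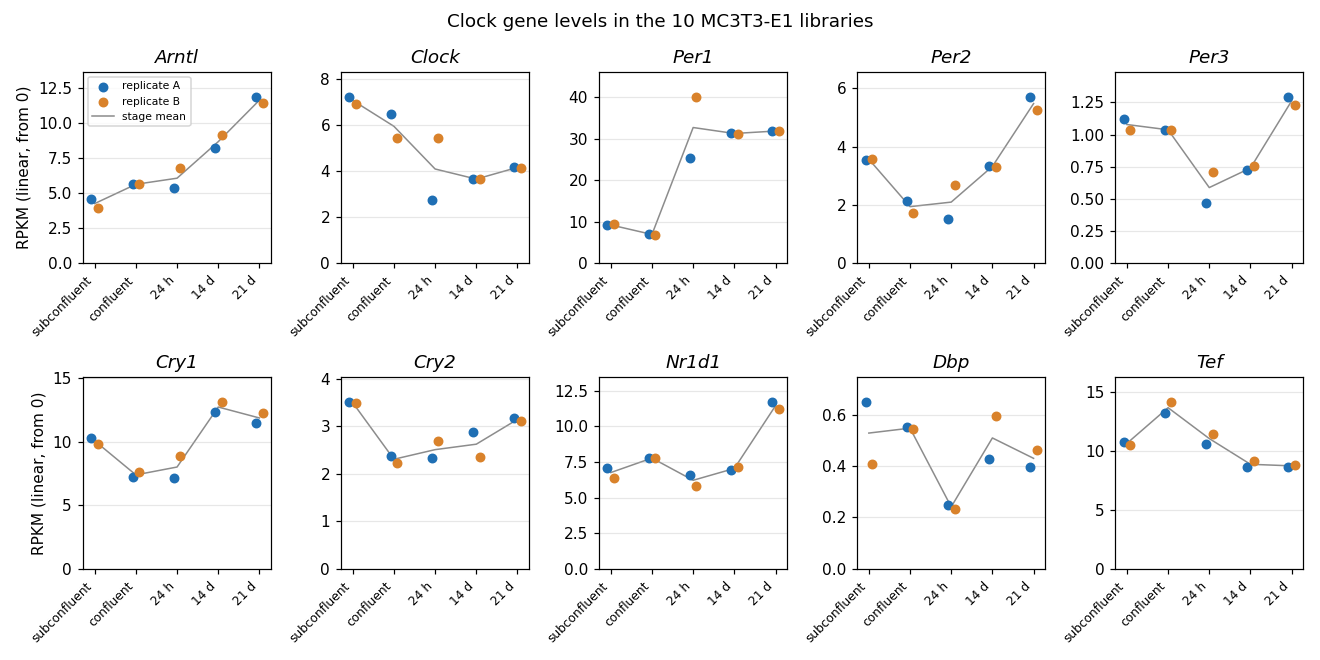
RPKM of each clock gene (linear axes from 0) in each library against stage, with replicate A in blue, replicate B in orange and a grey line through the stage means (n = 2). Per1 sits near 7 to 9 before differentiation medium and at 25.3 to 40.1 after it, Arntl climbs from 3.93 to 4.58 in subconfluent cells to 11.4 to 11.8 at 21 d, and the 24 h points lie far apart in Clock, Per1 and Per2.

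Levels between genes were compared per length, in RPKM. Tef was the most abundant of the 10 genes before differentiation medium and Per1 after it, and Dbp was the lowest at every stage. In subconfluent cells the order by mean was Tef, Cry1, Per1, Clock, Nr1d1, Arntl, Per2, Cry2, Per3 and Dbp, in which only the neighbours Clock and Nr1d1 overlapped between libraries. In confluent cells it was Tef, Nr1d1, Cry1, Per1, Clock, Arntl, Cry2, Per2, Per3 and Dbp, with an overlap of Clock and Arntl. At 24 h Per1 led, followed by Tef, Cry1, Nr1d1, Arntl, Clock, Cry2, Per2, Per3 and Dbp, and the libraries of Nr1d1 and Arntl, of Arntl and Clock and of Cry2 and Per2 overlapped. At 14 d the order was Per1, Cry1, Tef, Arntl, Nr1d1, Clock, Per2, Cry2, Per3 and Dbp, with Tef and Arntl overlapping. At 21 d it was Per1, Cry1, Arntl, Nr1d1, Tef, Per2, Clock, Cry2, Per3 and Dbp, where Cry1 overlapped Arntl and Arntl overlapped Nr1d1. With 2 libraries a stage, a lack of overlap says only that the 2 values of a gene lay above the 2 of its neighbour.

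Of the activators, Arntl rose through the culture and Clock stood lower late without passing the test. Arntl (ENSMUSG00000055116, chr7:113207465-113314126, plus strand) was at 4.58 and 3.93 RPKM in subconfluent replicates A and B, 5.61 and 5.63 in confluent cells, 5.35 and 6.76 at 24 h, 8.18 and 9.13 at 14 d and 11.8 and 11.4 at 21 d. The 24 h libraries lay on either side of the confluent ones, and both late stages lay above every earlier library. Arntl rose by 0.84 ± 0.12 on the log2 scale (standard error) from confluent to 14 d, 1.79-fold, with an adjusted p of 0.00233 in edgeR's quasi-likelihood test, and 21 d cells had 2.95-fold the level of subconfluent cells (log2 1.56 ± 0.13, adjusted p = 5.79e-05). Both calls held under each alternative tried. An antisense gene, Gm45355, which was not analysed here, shares 33 of 7523 exon bases of Arntl, or 0.439%. In bulk RNA a change in the RNA of each cell and a change in the number of cells that make it cannot be told apart, here and below.

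Clock (ENSMUSG00000029238, chr5:76209868-76304792, minus strand), the partner of Arntl in the loop, was at 7.24 and 6.94 RPKM in subconfluent cells, 6.49 and 5.44 in confluent cells, 2.77 and 5.44 at 24 h, 3.66 and 3.67 at 14 d and 4.20 and 4.15 at 21 d. Both late stages lay below every subconfluent and confluent library, and the 24 h replicates lay farther apart than any growth-medium libraries did. Clock did not pass the F test over the 5 stages (adjusted p = 0.0945) nor 21 d against subconfluent cells (log2 -0.65 ± 0.25, adjusted p = 0.0615). Without both 24 h libraries the latter difference was -0.66 ± 0.08 with an adjusted p of 0.00042 in edgeR. With all libraries kept it was also called with no filter (adjusted p = 0.0383), by DESeq2 (0.0218) and with the trend with gene length removed (0.00705), so 4 of 14 alternatives called it. Within each library Arntl was at 0.566 to 0.632 times the RPKM of Clock in subconfluent cells and at 2.74 to 2.82 times at 21 d, a ratio that needs no scaling between libraries.

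Per1 showed the largest change of the 10 genes. Per1 (ENSMUSG00000020893, chr11:69095217-69109960, plus strand) is the period gene most directly induced by cAMP and glucocorticoid signals. It was at 9.13 and 9.39 RPKM in subconfluent cells, 6.99 and 6.95 in confluent cells, 25.3 and 40.1 at 24 h, 31.4 and 31.1 at 14 d and 32.0 and 31.8 at 21 d. Every library in differentiation medium lay above every library in growth medium, and the 24 h replicates bracketed the late ones. From confluent to 24 h cells Per1 rose 4.96-fold (log2 2.31 ± 0.17, adjusted p = 0.00102), and 14 d against confluent cells gave 5.22-fold (log2 2.38 ± 0.17, adjusted p = 0.000122). The change between 14 d and 21 d was -0.05 ± 0.16 (adjusted p = 0.93), a value that took the other sign when libraries were scaled by size alone or RPKM was used. Per1 passed the test under every alternative for 24 h and for 14 d against confluent cells and for 21 d against subconfluent cells (3.73-fold, adjusted p = 8.81e-05).

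Per2 (ENSMUSG00000055866, chr1:91415982-91459324, minus strand), the period gene with the strongest effect on rhythm when lost, took another course. It was at 3.55 and 3.60 RPKM in subconfluent cells, 2.15 and 1.74 in confluent cells, 1.52 and 2.68 at 24 h, 3.34 and 3.32 at 14 d and 5.71 and 5.25 at 21 d. The 24 h replicates fell below and above both confluent libraries, and 21 d was the highest stage with no overlap. Per2 rose 1.99-fold from confluent to 14 d (log2 0.99 ± 0.22, adjusted p = 0.0128), a call lost without confluent replicate B (adjusted p = 0.084), without 14 d replicate A (0.057), without 14 d replicate B (0.063), with library size alone (0.072) and in limma on log2(RPKM + 0.1) (0.056). For 21 d against subconfluent cells the value was 1.66-fold (adjusted p = 0.0256), and the adjusted p ran from 0.070 to 0.106 when any of the 4 libraries compared was left out. It was also 0.123 with library size alone and 0.0533 and 0.0855 in the limma fits. Without both 24 h libraries it was 0.00089, and 0.000462 for 14 d against confluent cells.

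Per3 (ENSMUSG00000028957, chr4:151003652-151044665, minus strand), a period gene that the core loop can do without, was at 1.12 and 1.03 RPKM in subconfluent cells, 1.04 in both confluent libraries, 0.471 and 0.707 at 24 h, 0.726 and 0.756 at 14 d and 1.29 and 1.23 at 21 d. The 24 h and 14 d libraries all lay below those of the other 3 stages. Per3 was 0.600 times its confluent level at 24 h (log2 -0.74 ± 0.17), which just missed the threshold (adjusted p = 0.051). With all libraries it was called with DESeq2 size factors (0.0472), by DESeq2 (0.00143) and in limma on log2(RPKM + 1) (0.0452). The length trend removed (0.0126) and the sum of the lanes (0.0478) also called it. Library size alone, no filter, limma on log2(RPKM + 0.1) and the replicate block did not. From 14 d to 21 d it rose 1.62-fold (log2 0.70 ± 0.17, adjusted p = 0.0416), a call lost without any of the 4 libraries compared (adjusted p 0.164 to 0.221), with library size alone (0.0744), in limma on log2(RPKM + 0.1) (0.0647) and with the replicate block (0.0730). Without both 24 h libraries that rise had an adjusted p of 0.00207. Within libraries Per1 was at 6.69 to 9.09 times Per3 in growth medium, 53.7 and 56.8 times at 24 h, 41.2 to 43.3 times at 14 d and 24.7 to 25.8 times at 21 d.

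Of the cryptochromes, Cry1 was higher at 14 d than in confluent cells, and the call of a smaller rise of Cry2 depended on the processing. Cry1 (ENSMUSG00000020038, chr10:85131700-85185064, minus strand), the stronger repressor of the pair, was at 10.3 and 9.82 RPKM in subconfluent cells, 7.19 and 7.57 in confluent cells, 7.12 and 8.89 at 24 h, 12.3 and 13.1 at 14 d and 11.5 and 12.2 at 21 d. Both late stages lay above all earlier libraries. Cry1 rose 2.00-fold from confluent to 14 d (log2 1.002 ± 0.10, adjusted p = 0.000533), which held under every alternative. Its 1.28-fold rise from subconfluent to 21 d (adjusted p = 0.023) did not. That call was lost when any of the 4 libraries compared was left out. Its adjusted p was 0.301 with library size alone, 0.0534 with no filter, 0.137 and 0.138 in the limma fits and 0.0509 with the length trend removed. Without both 24 h libraries it was 0.00394.

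Cry2 (ENSMUSG00000068742, chr2:92403646-92434043, minus strand) was at 3.51 and 3.49 RPKM in subconfluent cells, 2.38 and 2.23 in confluent cells, 2.33 and 2.69 at 24 h, 2.89 and 2.36 at 14 d and 3.18 and 3.12 at 21 d. It fell by 0.63 ± 0.11 on the log2 scale from subconfluent to confluent cells (adjusted p = 0.0278), the single call among the clock genes in that comparison, and the call was lost without any of the 4 libraries compared (adjusted p 0.094 to 0.210). It was also lost with library size alone (0.0763), with no filter (0.0519), in both limma fits (0.0858 and 0.0973) and with the replicate block (0.0637). Without both 24 h libraries it was kept (0.0105). The 1.32-fold rise from confluent to 14 d (log2 0.40 ± 0.11, adjusted p = 0.0269) rested on groups that overlapped in RPKM and was lost without confluent replicate A, confluent replicate B or 14 d replicate A (adjusted p 0.078, 0.132 and 0.176). With all libraries it was lost with library size alone (0.398), with no filter (0.112) and in both limma fits (0.384 and 0.394), and 7 of 14 alternatives called it. An opposite-strand gene, D930015M05Rik, shares 295 of its 6320 exon bases, or 4.67%, at a mean of 94.6 counts against 1119.8 for Cry2.

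Nr1d1 (ENSMUSG00000020889, chr11:98767932-98775333, minus strand), the nuclear receptor of the side loop, was at 7.10 and 6.40 RPKM in subconfluent cells, 7.77 in both confluent libraries, 6.59 and 5.83 at 24 h, 6.92 and 7.17 at 14 d and 11.7 and 11.2 at 21 d. Both 21 d libraries lay above all others. Nr1d1 rose 1.54-fold from 14 d to 21 d (log2 0.63 ± 0.11, adjusted p = 0.014) and was 1.84-fold higher at 21 d than in subconfluent cells (adjusted p = 0.000548). The second call held under every alternative, and the first was lost without any of the 4 libraries compared (adjusted p 0.074 to 0.118). Without both 24 h libraries the first call had an adjusted p of 0.00117. The exons of Nr1d1 share 263 of 3077 bases, or 8.55%, with Thra on the opposite strand, which had a mean of 7764.2 counts against 1593.4 for Nr1d1. Whether the counts respect strand is not given in the sources used here, so reads of the 2 genes in that stretch may not be separable.

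The output factors Tef and Dbp did not follow each other. Tef (ENSMUSG00000022389, chr15:81802421-81826863, plus strand) was at 10.7 and 10.5 RPKM in subconfluent cells, 13.2 and 14.1 in confluent cells, 10.6 and 11.5 at 24 h, 8.62 and 9.09 at 14 d and 8.64 and 8.80 at 21 d. Confluent cells were highest and the late stages lowest, with no overlap. Tef was the only clock gene called lower at 14 d than in confluent cells (log2 -0.41 ± 0.08, 1.33-fold lower, adjusted p = 0.00676), a call lost without 14 d replicate A (adjusted p = 0.060). Without both 24 h libraries that call had an adjusted p of 0.00116. Gm17597 on the opposite strand shares 193 of 7867 exon bases of Tef, or 2.45%, at a mean of 51.1 counts against 5390.3.

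Dbp (ENSMUSG00000059824, chr7:45705088-45710203, plus strand), in rhythmic tissue among the transcripts with the widest swing, was barely present: 0.650 and 0.408 RPKM in subconfluent cells, 0.552 and 0.544 in confluent cells, 0.250 and 0.232 at 24 h, 0.426 and 0.593 at 14 d and 0.396 and 0.464 at 21 d. These values rest on 31 to 164 counts a library. Both 24 h libraries lay below all others, at 2.13-fold less than in confluent cells (log2 -1.09 ± 0.30), which did not pass the test (adjusted p = 0.0926). DESeq2 did call it. Sphk2 on the opposite strand shares 539 of 2993 exon bases of Dbp, or 18.0%, at a mean of 1920.1 counts against 74.9 for Dbp, so without a known strand setting the level of Dbp is uncertain.

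**Figure D2:**
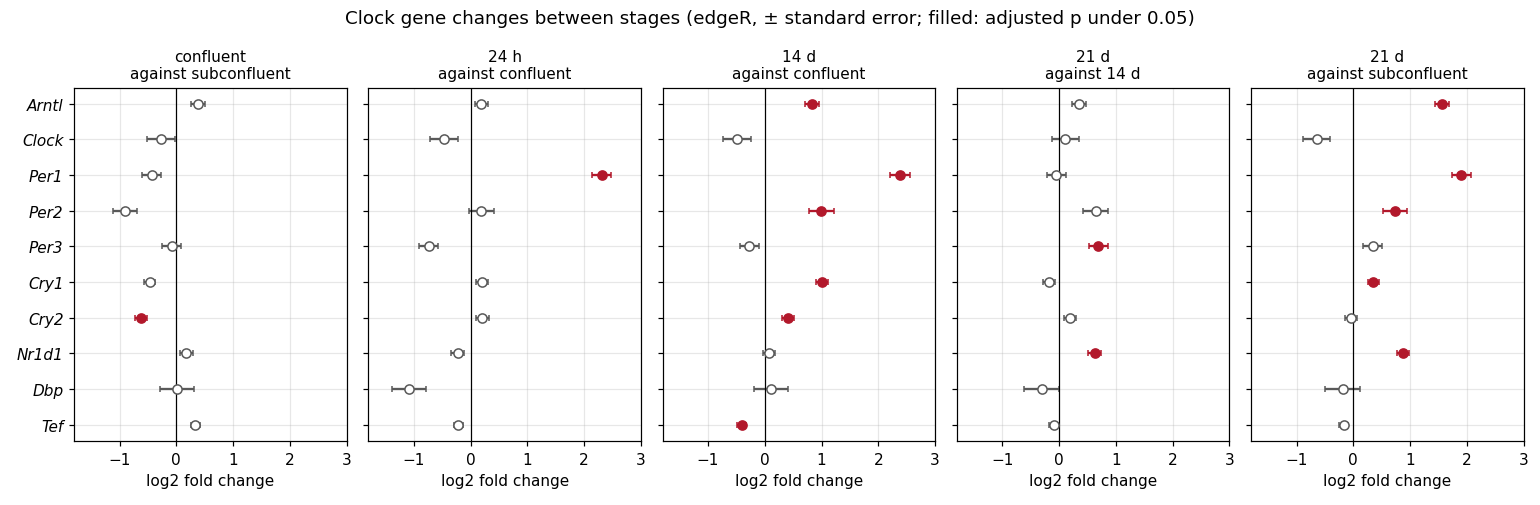
Log2 fold change of each clock gene (edgeR, n = 2 libraries a stage) in 5 comparisons of stages, with the standard error as the bar and filled red points for an adjusted p under 0.05. Per1 stands at 2.31 and 2.38 against confluent cells at 24 h and 14 d, and the other called points lie between -0.63 and 1.90.

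Over all 5 stages, 8 of the 10 clock genes passed the F test, all but Clock and Dbp (adjusted p 0.0945 and 0.0678), where 48.9% of all genes tested passed. Between the growth stages 1 clock gene was called, Cry2, which was lower, against 3.28% of all genes and 1.34% in that direction. Harvest time and time since the last medium change are not given for either stage, so confluence alone is not isolated. The median of the 10 log2 changes was -0.18 and that of all genes 0.00. Without both 24 h libraries 6 were called, Arntl and Tef higher and Per1, Per2, Cry1 and Cry2 lower, and the share of all genes called was 15.4%.

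The first day of differentiation medium called 1 clock gene, Per1, which was higher, against 5.15% of all genes and 3.59% in that direction. The clock genes had a median log2 change of -0.01 and all genes one of 0.00. Without 24 h replicate A the log2 change was -0.52 for Per3 and -0.38 for Nr1d1. Without 24 h replicate B it was -0.97 for Per3 and -0.93 for Clock. Of all calls 69.6% were higher, a share that became 53.8% when libraries were scaled by their size alone. That scaling moved the median of all genes by -0.13 in this comparison, by -0.23 in 14 d against confluent cells and by -0.15 in 21 d against subconfluent cells, and log2 changes under it are to be read against those shifts.

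At 14 d against confluent cells, the stages that bound the main phase of differentiation, 6 clock genes were called, 5 higher (Per1, Cry1, Per2, Arntl and Cry2) and 1 lower (Tef), against 32.1% of all genes, 16.9% higher and 15.3% lower. The median of the members was 0.25 and that of all genes 0.03. Without both 24 h libraries 8 were called, adding Clock and Per3 as lower, where the share of all genes was 50.7%. Nr1d1 and Dbp, at 0.07 ± 0.11 and 0.11 ± 0.30, changed sign when scaled by library size alone. Of all calls 52.5% were higher under the main scaling and 32.2% under library size alone.

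From 14 d to 21 d, 2 were called, Nr1d1 and Per3, both higher, against 9.72% of all genes and 3.77% in that direction. No call was left without any of the 4 libraries compared. Without both 24 h libraries Arntl and Per2 were called as well, both higher, where the share of all genes was 25.4%. Of all calls 38.8% were higher, against 51.1% under library size alone. For 21 d against subconfluent cells, the widest comparison, 5 of 10 were called, all higher (Per1, Arntl, Nr1d1, Per2 and Cry1), against 50.7% of all genes, of which 27.3% were higher and 23.5% lower. The 5 of 10 called here and the 1 of 10 called at 24 h are close to the shares of all genes called. Without both 24 h libraries 8 were called for 21 d against subconfluent cells, where the share of all genes was 64%. Per3 was added as higher, and Clock and Tef as lower. These comparisons share stages, so their calls are not separate evidence.

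Whether the 24 h replicates differed in clock phase was examined next. On CPM (counts scaled to library size) normalized by TMM, the trimmed mean of M-values, log2 of A over B at 24 h was -0.24 for Arntl, -0.87 for Clock, -0.56 for Per1, -0.71 for Per2, -0.48 for Per3, -0.22 for Cry1, -0.10 for Cry2, 0.28 for Nr1d1, 0.20 for Dbp and -0.01 for Tef. The Per genes, Arntl and Clock were all lower in replicate A, and Nr1d1 and Dbp were higher in it. Dbp took the other sign, at -0.0213, with library size alone, and Per3 at 0.0208 with the trend with gene length removed. At the other stages the values lay between -0.51 and 0.65, and both of these ends were Dbp.

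At 24 h the mean over Per1, Per2, Per3, Nr1d1, Dbp and Tef was -0.21 and that over Arntl and Clock -0.55, a difference of 0.34, while the same difference was 0.01 in subconfluent cells, -0.08 in confluent cells, -0.02 at 14 d and -0.04 at 21 d. With 1 library a replicate no test of this is possible. Most of the mean of the activators came from Clock, at -0.87, while Arntl, at -0.24, lay close to the -0.21 of the first set. With the trend with gene length removed, Arntl was at -0.29 and the mean of the first set at -0.002. Within libraries, Arntl over Nr1d1 was 0.811 in replicate A and 1.16 in replicate B, whereas Arntl over Per2 was 3.52 and 2.52, so relative to Arntl, Nr1d1 was higher in replicate A and Per2 in replicate B. Per1 over Per3 was 53.7 and 56.8, and Per1 over Per2 16.7 and 15.0, nearly alike in both.

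**Figure D3:**
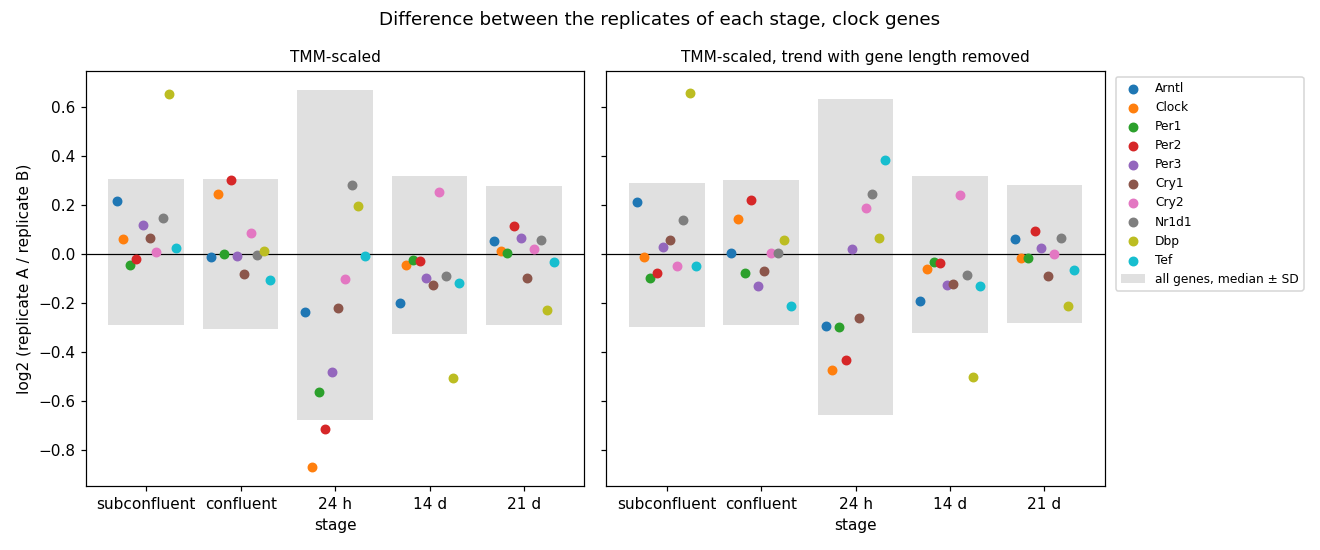
Log2 of replicate A over replicate B for the 10 clock genes (coloured points) at each stage, on TMM-scaled CPM (left) and with the trend with gene length removed (right), where the grey bars are the median ± SD over all genes. At 24 h the points span -0.87 to 0.28 on the left and -0.47 to 0.38 on the right, within bars that are also widest at that stage apart from Clock and Per2 on the left.

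These differences were then set against those of all genes. Of the 16133 genes, 13.0% lay as far from the median at 24 h as Clock, 21.3% as Per2, 32.4% as Per1 and 39.5% as Per3, and for the other 6 clock genes the share was 61.7% to 99.1%. The 24 h ratio also moved with gene length. Its Spearman correlation with length across genes, which are not independent replicates, was -0.41, and the class medians ran from 0.35 for genes under 1000 bases to -0.45 for genes over 6000 bases. Clock, Per1, Per2 and Per3, the clock genes with the most negative ratios, have lengths of 7455, 5607, 5832 and 9585 bases in the deposited table, and Nr1d1 and Dbp, with the most positive ones, 3053 and 2451. Tef and Cry2, at 7390 and 5894 bases, are as long as the first 4 and had ratios of -0.01 and -0.10, while Arntl and Cry1, at 2884 and 3001, had -0.24 and -0.22.

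**Figure D4:**
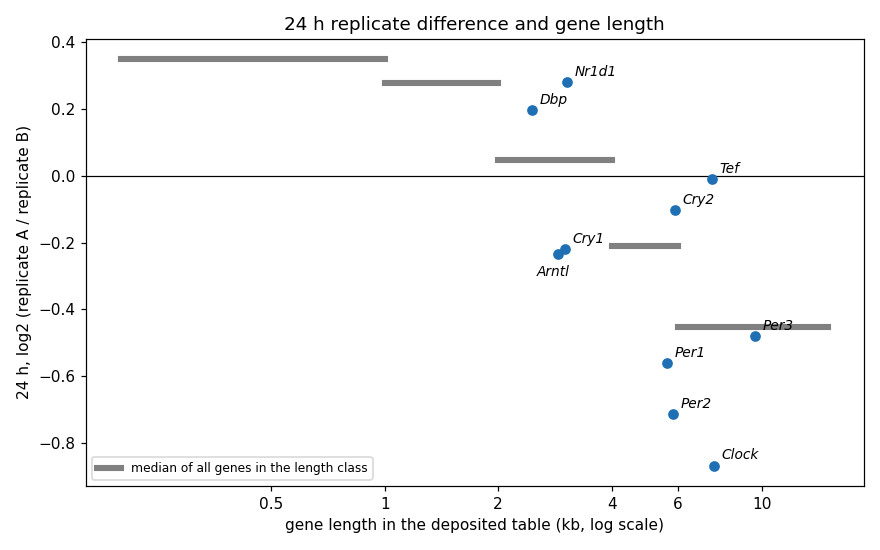
Log2 of replicate A over replicate B at 24 h (TMM-scaled) against gene length in kilobases on a log scale, with the 10 clock genes as blue points and the median of all genes in each length class as a grey bar. The bars step down from 0.35 to -0.45, and the long clock genes Clock, Per1, Per2 and Per3 lie at -0.48 or lower while Tef and Cry2, also long, lie at -0.01 and -0.10.

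With the trend with length removed, the 24 h values were -0.29 for Arntl, -0.47 for Clock, -0.30 for Per1, -0.43 for Per2, 0.02 for Per3, -0.26 for Cry1, 0.19 for Cry2, 0.25 for Nr1d1, 0.07 for Dbp and 0.38 for Tef. Of the members 5 were then lower and 5 higher in replicate A, and the difference between the 2 sets of genes was 0.38. Clock, the farthest from the median, was matched or passed by 27.7% of all genes. The part of gene length, of RNA quality or of the clock in the 24 h difference was not tested.

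The other genes of the clock were taken from a list of 21, of which 20 were tested, all but Hlf. Of these 14 passed the F test, where 48.9% of all genes did. In 14 d against confluent cells 8 were called higher and 3 lower, with a median log2 change of 0.30 where that of all genes was 0.03. Of all genes 32.1% were called in that comparison. The counts higher and lower were 1 and 2 between the growth stages (3.28% of all genes called), 2 and 3 at 24 h (5.15%), 4 and 1 from 14 d to 21 d (9.72%) and 9 and 3 at 21 d against subconfluent cells (50.7%). Among all genes called, 59.3% were higher between the growth stages, 69.6% at 24 h and 52.5% at 14 d against confluent cells. The same share was 38.8% from 14 d to 21 d and 53.7% at 21 d against subconfluent cells. Bhlhe41 (DEC2), a repressor that binds E-boxes, went from 0.515 and 0.510 RPKM in subconfluent cells to 0.757 and 0.900 in confluent cells, 1.08 and 1.09 at 24 h, 9.05 and 8.53 at 14 d and 18.1 and 17.5 at 21 d. Each stage lay above the one before it, and the change from confluent to 14 d was 12.3-fold (log2 3.62 ± 0.11, adjusted p = 5.91e-06). Its relative Bhlhe40 (DEC1) was 1.60-fold lower at 24 h than in confluent cells (adjusted p = 0.0259) and 1.45-fold higher at 14 d (adjusted p = 0.0146).

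Nfil3, which binds the D-box as a repressor, was 1.65-fold higher at 24 h than in confluent cells (adjusted p = 0.0112) and 2.87-fold higher at 21 d than in subconfluent cells (adjusted p = 2.9e-05). Nr1d2, the close relative of Nr1d1, was at 6.20 and 6.07 RPKM in subconfluent cells, 4.47 and 3.91 in confluent cells, 1.69 and 2.05 at 24 h, 2.73 and 2.47 at 14 d and 3.48 and 3.51 at 21 d. Its 24 h libraries were the lowest, 2.11-fold below confluent cells (adjusted p = 0.00312), and it was 1.62-fold lower at 21 d than in subconfluent cells (adjusted p = 0.00121), where Nr1d1 was higher. Usp2, a deubiquitinase with a clock-driven transcript, was 1.95-fold higher at 21 d than in subconfluent cells (adjusted p = 0.000703). Timeless, whose mammalian product also works at replication forks, was 9.85-fold lower in the same comparison (adjusted p = 1.11e-05).

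Signals that reset cultured clocks were followed through a second list of 18 genes induced by serum, cAMP or glucocorticoid, all of which were tested and 17 of which passed the F test, where 48.9% of all genes did. At 24 h against confluent cells 3 were called higher and 4 lower, where 5.15% of all genes were called, with a median log2 change of 0.22 where that of all genes was 0.00. At 21 d against subconfluent cells 14 were higher and 1 lower, where 50.7% of all genes were called, with a median of 1.08 where that of all genes was 0.04. The counts were 7 and 2 between the growth stages (3.28% of all genes called), 8 and 7 at 14 d against confluent cells (32.1%) and 8 and 0 from 14 d to 21 d (9.72%). Among all genes called, the shares that were higher are those given above for the list of other clock genes. The 3 that were higher at 24 h were Tsc22d3, Fkbp5 and Sgk1. Of the genes of the list that glucocorticoid can also induce, Klf9 (log2 0.25 ± 0.39, adjusted p = 0.736), Cebpd (0.65 ± 0.15, adjusted p = 0.0579) and Dusp1 (-0.17 ± 0.13, adjusted p = 0.445) were not called at 24 h, nor was Zbtb16, which had 0 and 2 counts there, and these 4 are named after their values were seen. Tsc22d3 (GILZ) was at 10.2 and 9.19 RPKM in subconfluent cells, 10.0 and 9.47 in confluent cells, 129 and 113 at 24 h, 166 and 172 at 14 d and 278 in both 21 d libraries. Like Per1 it had every library in differentiation medium above every one in growth medium, and it was 13.3-fold higher at 24 h than in confluent cells (log2 3.73 ± 0.13, adjusted p = 0.000233).

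Fkbp5, a co-chaperone of steroid receptors, was 3.84-fold higher at 24 h than in confluent cells (adjusted p = 0.000264) and 5.95-fold at 14 d (adjusted p = 7.62e-06), and Sgk1, a kinase, was 2.41-fold higher at 24 h (adjusted p = 0.00155) and 2.23-fold at 14 d (adjusted p = 0.000315). The immediate early factor Atf3 was higher at 21 d than in subconfluent cells, 13.1-fold (adjusted p = 5.49e-06), as was the phosphatase Dusp1, 4.28-fold (adjusted p = 2.19e-05). Fosl1, a serum-induced AP-1 subunit, was 3.76-fold lower (adjusted p = 4.53e-05).

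**Figure D5:**
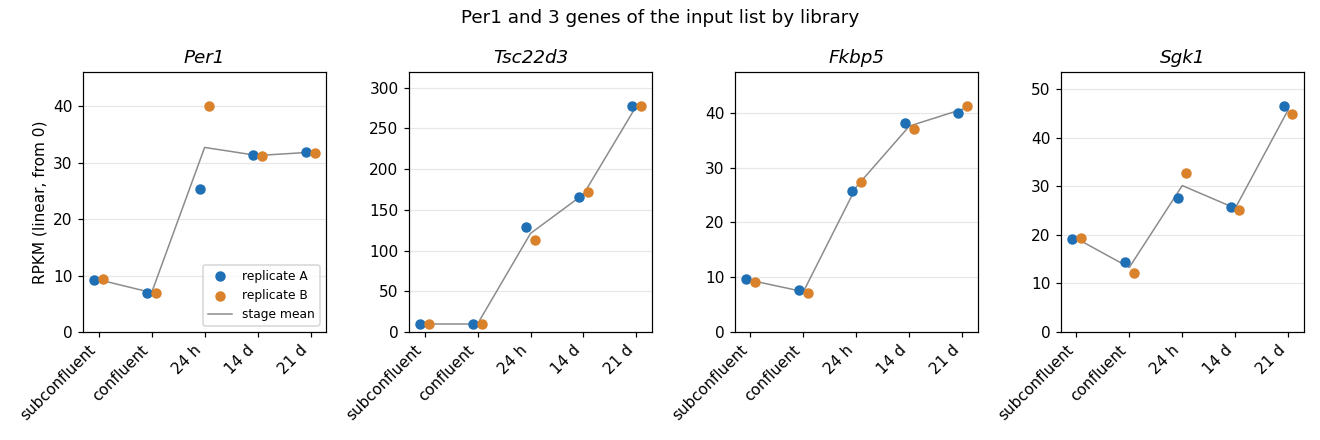
RPKM (linear axes from 0) of Per1 and of Tsc22d3, Fkbp5 and Sgk1 in each library against stage, with replicate A in blue, replicate B in orange and a grey line through the stage means (n = 2). In Per1, Tsc22d3 and Fkbp5 all 6 libraries in differentiation medium lie above all 4 in growth medium, as they do in Sgk1, where the lowest of the 6 stands at 25.1.

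Across the 10 libraries, which are 5 stages of 2 and share their scaling, the log2 levels of Per2 and Cry1 had a Pearson r of 0.84, Per2 and Cry2 0.84, Arntl and Nr1d1 0.79, Arntl and Dbp 0.12 and Per2 and Tef -0.89. These are given as descriptions over stages of culture and not over a day. Among 12080 genes averaging 5 CPM or more, the ones most like Arntl were Nr2c1 (r = 0.996), Tvp23b (0.991), Tm7sf3 (0.989), Ezh1 (0.989) and Zfp12 (0.989). For Dbp they were Spon2 (0.88), Gm5335 (0.83), Gm6498 (0.82), Gm5763 (0.82) and Gm14130 (0.82), which is a lower likeness over libraries with few Dbp counts.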

How the data were processed

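Libraries of MC3T3-E1 cells from 5 stages, 2 a stage, were analysed from the deposited tables of gene counts (whole reads per gene, not normalized) and of RPKM made by the authors, in which counts were divided by gene length and by a read number that the total counts exceeded 1.44 to 1.60 times. Reads were 51 bp paired-end per the labels. The submitters' processing notes name FastQC, TopHat2 2.0.9, R 3.0.1 and the build mm10, with no role or order. The counting tool and strand setting are not given in the sources used here. For 14 d replicate A and 21 d replicate B the merged column of 2 lanes was used, which differed from the sum of the lanes for 13526 and 13582 genes. The RPKM table lacks 17 of the genes and has 1 incomplete row.

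GENCODE vM21 (GRCm38) gave symbols to 39547 of the 40620 identifiers. Counts were fitted with edgeR 4.0.16 in R 4.3.3 (filterByExpr, TMM, quasi-likelihood with 5 groups on all libraries), and Benjamini-Hochberg adjustment ran over the 20808 genes tested, called under 0.05. Standard errors are the log2 change divided by the square root of F. Alternatives used DESeq2 1.42.0 and limma 3.58.1 on log2(RPKM + 1) or log2(RPKM + 0.1). Gene length trends were removed by lowess with a span of 0.3. Correlations and replicate ratios used log2 CPM with a prior count of 2. The scripts were tested on simulated data. The members and lists were chosen with earlier results of these data known. Of the lists, the genes named are at most 6 a list that passed the F test, by smallest adjusted p, and the likeness searches give the 5 genes with the highest r. Genes that overlap a member's exons are named. The exceptions to these rules are stated where they occur.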

Additional observations from a re-analysis of the deposited data

How the results depend on the processing

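Of the alternatives to counts and values given above, 91 summary values stayed within their limits and 41 moved. Among single genes, 839 kept their direction and side of the threshold or moved by less than 1 SD, 50 lost and 47 gained a call, 26 replicate ratios moved and 16 changed sign. The main fit called 3.28% of all genes for confluent against subconfluent cells. There the 1 clock gene called became 0 with library size alone, no filter, either limma fit or a 2-fold requirement. Of all genes 2.23% were called with library size alone, 1.79% with no filter and 2.97% and 2.83% in the limma fits. The 1 became 3 with the length trend removed (5.94% of all genes called), 4 with DESeq2 (9.83%) and 6 without both 24 h libraries (15.4%). For 24 h against confluent cells the main fit called 5.15% of all genes. The 1 clock gene called became 2 with DESeq2 size factors (5.15%) or limma on log2(RPKM + 1) (6.08%). It also became 2 with the length trend removed (9.24%) or the sum of the lanes (5.45%), and 4 with DESeq2 (14.9%). For 14 d against confluent cells (32.1% of all genes) the 6 became 2 with a 2-fold requirement. They became 4 with library size alone (35.3%) or limma on log2(RPKM + 0.1) (36.7%), and 5 with no filter (20%) or limma on log2(RPKM + 1) (36.4%). They became 8 with the length trend removed (38.3%) or without both 24 h libraries (50.7%). For 21 d against 14 d (9.72% of all genes) the 2 became 1 with library size alone (9.21%) or limma on log2(RPKM + 0.1) (11.2%). They became 0 with a 2-fold requirement. They became 3 with DESeq2 (17.2%) or the length trend removed (14.7%) and 4 without both 24 h libraries (25.4%). For 21 d against subconfluent cells (50.7% of all genes) the 5 became 2 with a 2-fold requirement. They became 4 with library size alone (50.3%) or either limma fit (51.1% in each). They became 6 with the length trend removed (55%), 7 with DESeq2 (48.5%) and 8 without both 24 h libraries (64%). A 2-fold requirement left 297, 443, 2705, 826 and 5740 of the 20808 genes called in these comparisons, in order. Leaving out each library compared in turn, where the lone sample left in a stage is assumed to vary like the others, gave 0 for confluent against subconfluent cells, 1 to 3 for 24 h, 3 to 5 for 14 d, 0 for 21 d against 14 d and 3 for 21 d against subconfluent cells. In the F test it gave 8 to 9 clock genes, and, added after seeing the data, 11 to 18 of the other clock genes and 15 to 18 of the input genes. The cause of these changes was not tested.

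The correlations of A minus B between stages ran from -0.33 to 0.32, so no difference between the letters was shared by all stages. They cannot show whether A and B were paired in culture or preparation. Among the early stages, and among the late ones, each letter went with its own index sequence. With the replicate block 0 clock genes were called for confluent against subconfluent cells and 1 for 21 d against 14 d, and the other counts stayed at 8, 1, 6 and 5. The block took the genes called from 683 to 351 and from 1072 to 601 in the first comparison and at 24 h, while DESeq2 gave 1865 and 2745, and 3254 in place of 2023 for 21 d against 14 d. The length trend removed gave 1235, 1922 and 3069, and leaving out both 24 h libraries gave 3212 for confluent against subconfluent cells, 10558 in place of 6688 at 14 d and 5280 for 21 d against 14 d.

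The 24 h difference between the sets of clock genes became 0.38 with the length trend removed, and the members' median of -0.23 became -0.45 with library size alone, -0.33 with RPKM and -0.12 with the length trend removed. The median of all genes, 0.00 in the main scaling, was -0.23 and -0.11 under the first and second of these. The changes of sign were all in uncalled values: Dbp between the growth stages gave -0.00139 with library size alone, -0.0161 with DESeq2, -0.0318 with the length trend removed and -0.27 and 0.40 without subconfluent replicate B or A. Per2 at 24 h gave -0.18 and 0.51 without 24 h replicate B or A. At 14 d Nr1d1 gave -0.16 with library size alone and -0.13 and -0.14 with limma, and Dbp -0.12, -0.0383 and -0.10 under the same and -0.17 and 0.35 without 14 d replicate B or A. Per1 from 14 d to 21 d gave 0.0384, 0.0261 and 0.0268 under the same, and Dbp at 21 d against subconfluent cells 0.20 and -0.47 without subconfluent replicate A or B. Depth limits Dbp most, at 31 counts in its lowest library.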

Other observations

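The replicate difference at 24 h was wider in a pair of listed genes than in any of the 10 clock genes, and both are named after their values were seen. Klf9, a glucocorticoid- and clock-responsive factor of the input list, had a log2 A over B of -1.47 at 24 h, with 2.73 RPKM in replicate A and 8.16 in replicate B, against 4.51 to 8.10 in the libraries of the other stages. Wee1, a cell cycle kinase under E-box control, had -0.90. With the trend with gene length removed they stood at -1.48 and -1.11. The median over the 16 other clock genes with enough counts was -0.18, and 4 of them were higher in replicate A. Over the 17 input genes it was -0.06, with 6 higher in replicate A.

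Zbtb16, a glucocorticoid-responsive factor of the input list, also named after its values were seen, had no count in either confluent library, 0 and 2 counts at 24 h, and 218 and 65 at 14 d. Against a floor of 3 counts a library it was at least 37.2-fold higher at 14 d than in confluent cells. The median log2 change of the input list in that comparison was 0.34 with Zbtb16 at this bound and with its fitted value. Between confluent and subconfluent cells, where both stages were at or under the floor, the list's median was 0.05 without Zbtb16 and 0.02 with it, and at 24 h 0.21 and 0.22.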
